A study of Homo sapiens with 18 samples.

Results

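The expression of 10 genes whose products act when an autophagosome fuses with a lysosome was followed in a human cell line that was fed or starved. They were taken as a list of named genes: STX17, SNAP29, VAMP8 and YKT6 (SNARE proteins), VPS39 and VPS41 (subunits of the HOPS tethering complex), RAB7A (a small GTPase), and PLEKHM1, EPG5 and TECPR1 (adaptors and tethers). All 10 were matched among the 63677 gene identifiers of the count tables, and 9 had enough reads to be tested, among 15179 genes in all; VAMP8 did not. In GENCODE 29 the protein-coding genes with their genome positions on GRCh38 are STX17 at chr9:99906633-99970341 (+), SNAP29 at chr22:20858983-20891218 (+), VAMP8 at chr2:85561562-85582031 (+) and YKT6 at chr7:44200968-44214294 (+) for the SNAREs. The others are VPS39 at chr15:42158701-42208316 (-), VPS41 at chr7:38722963-38932394 (-), RAB7A at chr3:128726122-128814796 (+), PLEKHM1 at chr17:45435900-45490749 (-), EPG5 at chr18:45847609-45967339 (-) and TECPR1 at chr7:98214624-98252251 (-). The cells were HAP1, near-haploid adherent cells whose parent, KBM-7, came from a chronic myeloid leukaemia. The 6 groups of 3 libraries each were the ATG7KO line after 6 h in EBSS, the ATG7KO line in full medium, the line labelled RB1CC1KO (also given as FIP200KO) after 6 h in EBSS, the same line in full medium, the parental line (WT) after 6 h in EBSS, and WT in full medium. Full medium was IMDM with 10% heat-inactivated fetal calf serum, and EBSS is a salt solution with glucose and without amino acids or serum. Each genotype was represented by 1 line, so an effect of the knockout and any other difference between the lines cannot be told apart.

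An autophagosome is a closed double-membrane vesicle that carries cell content to the lysosome for breakdown. RAB7 on these membranes recruits effectors such as PLEKHM1 and EPG5, the HOPS complex holds the membranes together, and a SNARE bundle fuses them. The best known bundle is made of STX17 on the autophagosome, SNAP29 from the cytosol and VAMP8 on the lysosome; YKT6 can form another with SNAP29. ATG7 activates the ubiquitin-like proteins ATG12 and ATG8 while the autophagosome forms, and RB1CC1 holds together the ULK1 kinase complex at the very start, so both act before fusion. Starvation is the standard way to switch autophagy on, and TFEB, a transcription factor that binds E-box sequences of the CLEAR type, is known to raise many lysosomal genes when nutrients are short.

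The promoters of 4 members are printed because these genes stand for the patterns described below. RAB7A and PLEKHM1 rose after EBSS in all 3 lines, VPS39 fell in all 3, and SNAP29 was the one member with an E-box among the 8 found in the RefSeq promoter table of GRCh38.p14 (STX17 and EPG5 are named only). Each sequence runs 5′ to 3′ on the gene's strand, from 250 bases before to 50 bases after the gene's start, and capitals mark the match to CACGTG, here 184 bases before the start of SNAP29.
RAB7A chr3:128725933-128726232 (+ strand): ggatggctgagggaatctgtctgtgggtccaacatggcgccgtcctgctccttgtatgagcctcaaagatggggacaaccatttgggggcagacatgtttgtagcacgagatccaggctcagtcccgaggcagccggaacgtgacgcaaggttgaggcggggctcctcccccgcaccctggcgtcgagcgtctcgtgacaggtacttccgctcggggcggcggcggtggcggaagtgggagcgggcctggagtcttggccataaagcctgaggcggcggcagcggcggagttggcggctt
PLEKHM1 chr17:45490672-45490971 (- strand): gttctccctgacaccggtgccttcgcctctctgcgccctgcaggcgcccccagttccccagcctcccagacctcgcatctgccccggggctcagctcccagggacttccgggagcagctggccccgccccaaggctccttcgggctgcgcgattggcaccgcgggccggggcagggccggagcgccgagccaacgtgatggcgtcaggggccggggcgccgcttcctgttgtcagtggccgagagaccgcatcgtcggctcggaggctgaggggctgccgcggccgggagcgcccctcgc
VPS39 chr15:42208255-42208554 (- strand): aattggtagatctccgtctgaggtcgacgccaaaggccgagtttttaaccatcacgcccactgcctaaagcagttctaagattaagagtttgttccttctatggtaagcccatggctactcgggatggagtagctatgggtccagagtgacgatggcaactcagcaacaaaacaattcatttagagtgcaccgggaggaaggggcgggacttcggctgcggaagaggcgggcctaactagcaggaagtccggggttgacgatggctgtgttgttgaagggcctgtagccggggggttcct
SNAP29 chr22:20858757-20859056 (+ strand): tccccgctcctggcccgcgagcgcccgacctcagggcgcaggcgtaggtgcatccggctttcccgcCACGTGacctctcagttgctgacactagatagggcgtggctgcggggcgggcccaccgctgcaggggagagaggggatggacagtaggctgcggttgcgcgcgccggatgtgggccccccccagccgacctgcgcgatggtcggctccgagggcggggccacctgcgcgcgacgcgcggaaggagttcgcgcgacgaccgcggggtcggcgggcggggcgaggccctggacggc
The motifs were searched on both strands and comprised the E-box CACGTG, the CLEAR core TCACGTGA (which contains the E-box), the ATF4 element TGATGNAA and the FOXO core GTAAACA. The E-box was found in 1 of 8 members, and in 7.26% of the 35116 promoters of the same length. TCACGTGA, TGATGNAA and GTAAACA had no match in the 8 windows, and 0.98%, 3.62% and 3.42% of all promoters held them. The windows follow RefSeq starts. Those of VAMP8 (chr2:85577336-85577635) and VPS41 (chr7:38909142-38909441) lie inside the GENCODE spans given above, so the starts of these spans were not searched. Among 46 promoters of related fusion genes, 11 held the E-box, and TCACGTGA was found in 3, those of VPS11, BLOC1S1 and LAMP1. A match describes letters in this window and says nothing about binding.

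The shallowest library, ATG7KO EBSS replicate 3, had 4892072 reads in genes and the deepest, RB1CC1KO EBSS replicate 2, had 26005942. ATG7 was at 4.51, 3.68 and 3.87 CPM in the ATG7KO libraries in full medium, against 14.2, 15.7 and 16.8 CPM in the WT libraries in full medium (log2 −1.95 ± 0.12, adjusted p = 8.81e-15 in edgeR's quasi-likelihood test). After EBSS it was at 11.0, 10.2 and 9.97 CPM in ATG7KO, against 16.0, 17.8 and 14.5 CPM in WT (−0.62 ± 0.12, adjusted p = 0.000149). ATG7 reads thus rose after EBSS in ATG7KO (1.38 ± 0.13, adjusted p = 5.37e-11 by edgeR) and were nearer to WT. RB1CC1 was higher, not lower, in the libraries labelled RB1CC1KO. It was at 147, 171 and 152 CPM in full medium, against 94.2, 106 and 115 CPM in WT. After EBSS it was at 251, 280 and 260 CPM, against 225, 231 and 210 CPM in WT. Over 12 alternative analyses its log2 fold change against WT was 0.50 to 0.62 in full medium and 0.21 to 0.30 after EBSS. The adjusted p was at most 5.7e-06 and 0.0322 in these media (edgeR or DESeq2). The counts thus do not show that knockout, and this line is called by its label. A read count over the whole gene does not show a small deletion. Of 7 blood markers, PTPRC, CD34, SPN and GATA1 did not exceed 0.323 CPM in any library, while TAL1, KIT and RUNX1 were detected. Of the mesenchymal markers, VIM was at 917 to 1248 CPM after EBSS and 496 to 812 CPM in full medium, CDH2 at 116 to 138 and 86.7 to 105 CPM, PDGFRA at 1.69 to 34.8 and 2.18 to 33.6 CPM, and THY1 at no more than 3.62 and 5.41 CPM. Of the epithelial ones, KRT18 was at 45.8 to 78.0 CPM after EBSS and 46.7 to 68.1 CPM in full medium, KRT8 at 5.09 to 29.5 and 6.43 to 28.2 CPM, EPCAM at no more than 3.44 and 3.73 CPM, and CDH1 at no more than 0.258 CPM in any library. The mitochondrial share of reads was 1.41% to 2.36% after EBSS and 3.24% to 4.26% in full medium; its part in the results was not tested. Levels are given as CPM, counts relative to the TMM-scaled size of the library. In bulk RNA, fewer cells with a transcript and less of it per cell cannot be told apart.

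Per kilobase of exon, the members spanned a wide range of levels and RAB7A was far above the others. In WT cells RAB7A was at 126 ± 10.5 CPM per kb after EBSS and 86.9 ± 4.69 CPM per kb in full medium (SD, n = 3 each). YKT6 came next, at 35.7 ± 0.306 CPM per kb after EBSS and 33.0 ± 0.737 CPM per kb in full medium, followed by SNAP29 at 12.8 ± 0.285 and 11.3 ± 0.315 CPM per kb. In WT, VPS41 and VPS39 overlapped in full medium and were apart after EBSS. VPS41 was at 10.3 ± 0.591 CPM per kb and VPS39 at 6.53 ± 0.292 CPM per kb after EBSS, against 8.23 ± 0.416 and 8.06 ± 0.177 CPM per kb in full medium. STX17 was at 3.52 ± 0.0186 CPM per kb after EBSS and 5.02 ± 0.256 CPM per kb in full medium. At the low end TECPR1, EPG5 and PLEKHM1 lay between 2.78 and 2.81 CPM per kb after EBSS in WT and did not differ beyond their spread. In full medium TECPR1 was above them at 2.53 ± 0.192 CPM per kb, and EPG5 and PLEKHM1 overlapped at 1.98 ± 0.104 and 1.93 ± 0.205 CPM per kb. The order of these 3 genes in either medium holds for this length only. The longest transcript has 5263 of 9233 exon bases in PLEKHM1, 6564 of 9066 in TECPR1 and 12698 of 13740 in EPG5. RAB7A and YKT6 held places 1 and 2 in all 6 groups. The places below YKT6 depend on the length used: per kilobase of the longest transcript, VPS39 in WT was at 11.3 CPM per kb after EBSS and 13.9 CPM per kb in full medium, SNAP29 at 14.8 and 13.0 CPM per kb and VPS41 at 13.6 and 10.9 CPM per kb, so that VPS39 led these 3 in full medium and was last after EBSS.

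**Figure D1:**
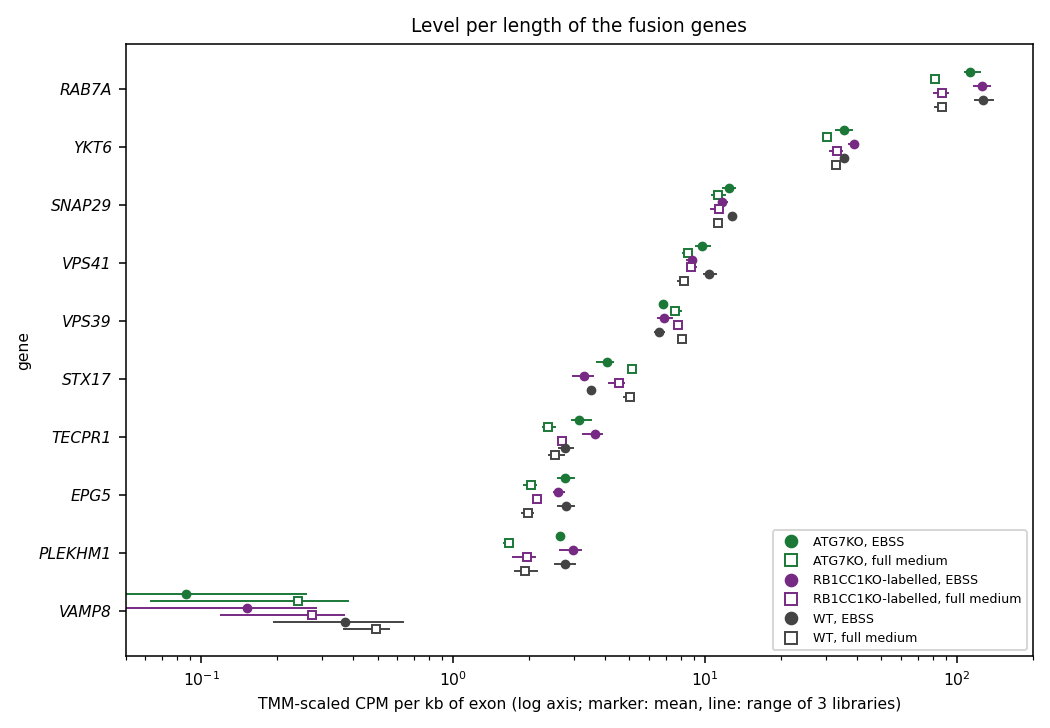
Level of each fusion gene in TMM-scaled CPM per kb of exon on a log axis, for each line after EBSS (filled circles) and in full medium (open squares); markers are means and lines the range of 3 libraries (lines that reach a library at 0 are drawn to the axis edge). RAB7A lies at 126 CPM per kb after EBSS and 86.9 CPM per kb in full medium in WT, and VAMP8 stays below 1 CPM per kb in every group.

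VAMP8, the lysosomal SNARE of the STX17 bundle, had very few reads in every group. It had 79 reads among 286139848 in the 18 libraries together. The groups had 4 reads in ATG7KO after EBSS and 13 in full medium, 8 in the RB1CC1KO-labelled line after EBSS and 14 in full medium, and 17 in WT after EBSS and 23 in full medium. The 23 reads, the most in any group, correspond to 0.526 CPM without TMM scaling (95% exact Poisson interval 0.333 to 0.789). The 4 reads, the fewest, correspond to 0.109 CPM (0.0297 to 0.279). These groups are the extremes and differ in both line and medium. The other groups lay between 0.134 and 0.355 CPM. The intervals cover counting error only, and no difference between groups was tested. VAMP8 was left out of every test below.

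The first comparison asked how the members responded to EBSS within each line. Of the 9 tested members, 8 were called in ATG7KO (62.9% of all tested genes were called), 7 in the RB1CC1KO-labelled line (65.1% of all genes) and 7 in WT (64.5% of all genes). Calls here and below need an adjusted p under 0.05 (edgeR, quasi-likelihood test, Benjamini-Hochberg over all 15179 genes). In ATG7KO 6 members rose (32.3% of all genes rose) and 2 fell (30.6%); in the RB1CC1KO-labelled line 5 rose (31.9%) and 2 fell (33.3%); in WT 5 rose (32.4%) and 2 fell (32.1%). The median log2 fold change of the members was 0.21, 0.22 and 0.19 in the 3 lines in that order, and that of all tested genes −0.01, −0.03 and −0.02. EBSS moved most genes in these cells, and the share of members called (88.9%, 77.8% and 77.8%) stands beside that background. RAB7A, PLEKHM1 and EPG5 rose and STX17 and VPS39 fell in all 3 lines, 5 of 9 members (55.6%) with 1 direction in every line; of all genes 48.6% did so, 25.2% higher and 23.3% lower. The 3 responses share no library.

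**Figure D2:**
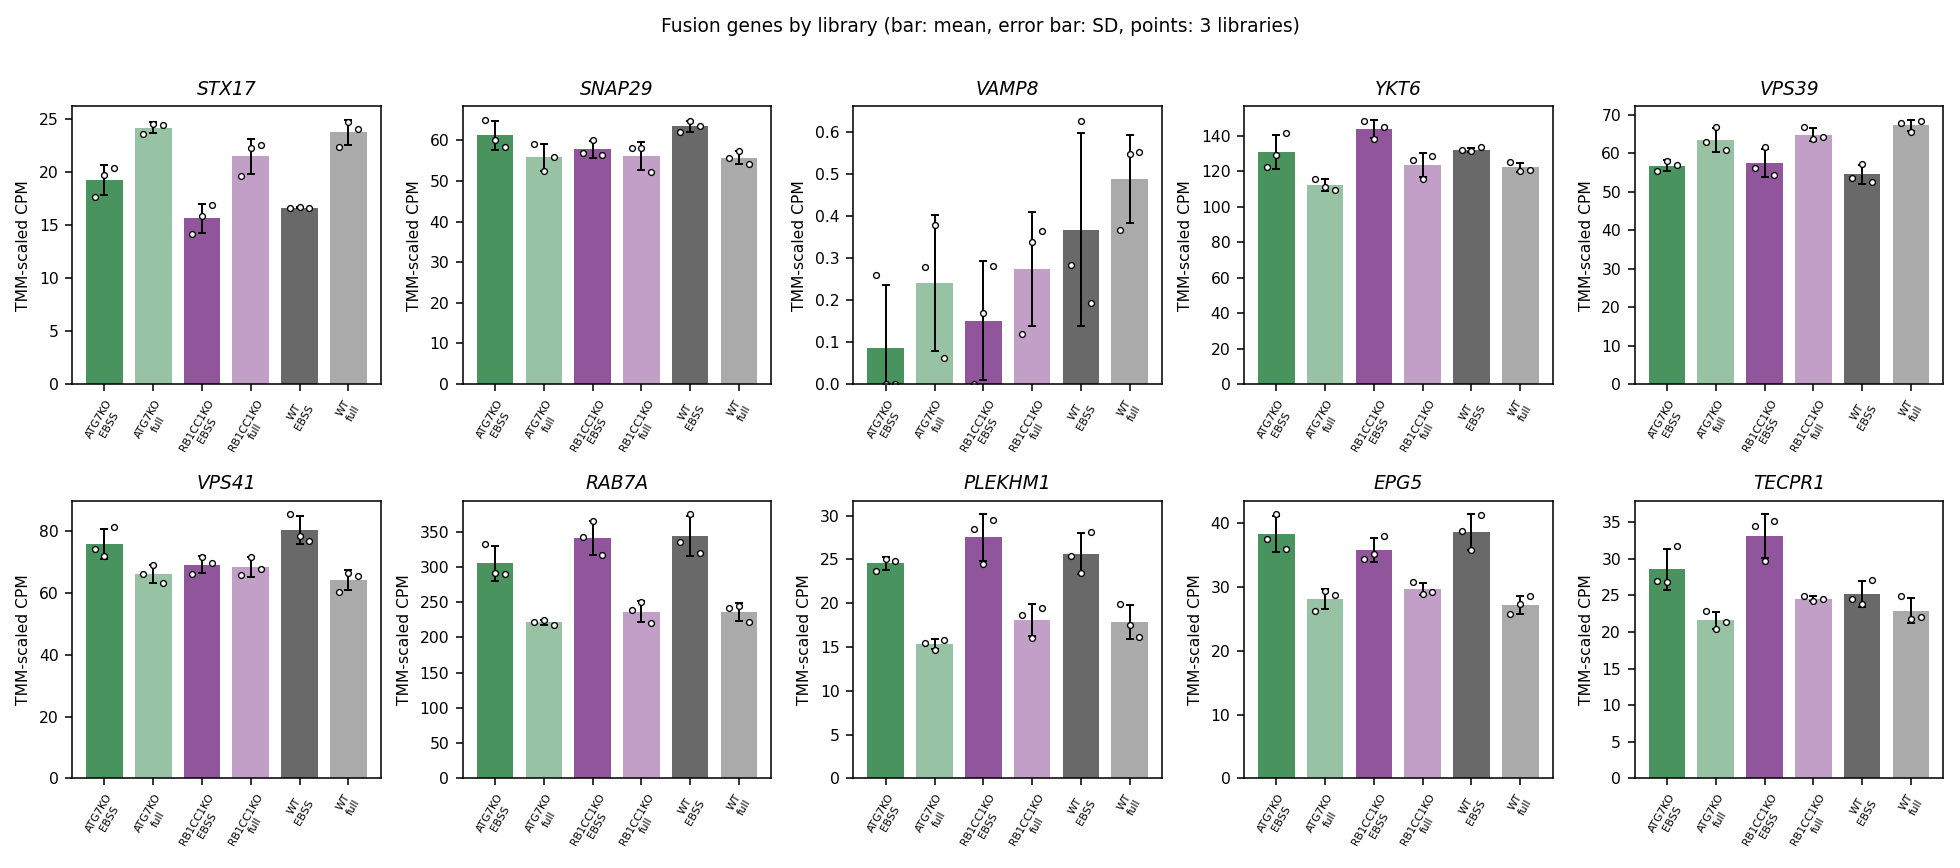
TMM-scaled CPM of the 10 fusion genes in each of the 18 libraries (open points), with the group mean (bar) and SD (error bar), for ATG7KO, the RB1CC1KO-labelled line and WT, each after EBSS (dark) and in full medium (light). All 9 EBSS libraries lie above all 9 full-medium libraries for RAB7A, PLEKHM1 and EPG5, while VAMP8 stays below 1 CPM throughout. How many of all genes separate in this way was not counted, and 48.6% of all tested genes were called with 1 direction in all 3 lines.

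RAB7A, the GTPase that marks late endosomes and lysosomes, rose in every line. It was at 333, 291 and 290 CPM in ATG7KO after EBSS and 222, 224 and 218 CPM in full medium. The RB1CC1KO-labelled line had 343, 365 and 316 CPM after EBSS and 238, 251 and 220 CPM in full medium, and WT had 335, 375 and 320 CPM after EBSS and 242, 244 and 221 CPM in full medium. The starved and fed libraries did not overlap in any line. RAB7A had a log2 fold change of 0.46 ± 0.07 in ATG7KO (SE; adjusted p = 3.26e-07), 0.53 ± 0.07 in the RB1CC1KO-labelled line (adjusted p = 1.55e-08) and 0.54 ± 0.07 in WT (adjusted p = 1.27e-08).

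PLEKHM1 and EPG5 rose in all 3 lines and TECPR1 in both knockout-labelled lines. No test of a difference between a knockout-labelled line's response to EBSS and that of WT passed for any of these genes. PLEKHM1, which links RAB7 to HOPS and to the ATG8 proteins, was at 23.7, 25.1 and 24.8 CPM in ATG7KO after EBSS against 15.5, 14.6 and 15.8 CPM in full medium. It was at 28.5, 24.5 and 29.5 against 18.7, 16.0 and 19.5 CPM in the RB1CC1KO-labelled line, and at 25.4, 23.5 and 28.1 against 19.9, 17.5 and 16.1 CPM in WT. All starved libraries of a line lay above its fed ones, and the log2 fold change was 0.68 ± 0.10, 0.60 ± 0.10 and 0.52 ± 0.10 in ATG7KO, the RB1CC1KO-labelled line and WT (adjusted p = 8.52e-07, 1.73e-06 and 2.69e-05). PLEKHM1P1, a near-identical pseudogene counted on its own with 39 to 208 reads per library against 117 to 578 for PLEKHM1, makes the split of reads between the pair uncertain. Its log2 fold change was 0.49 ± 0.15 in ATG7KO, 0.25 ± 0.14 in the RB1CC1KO-labelled line and 0.41 ± 0.14 in WT, past the threshold in ATG7KO and WT (adjusted p = 0.00521 and 0.0128) and not in the RB1CC1KO-labelled line (adjusted p = 0.106).

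EPG5, a RAB7 effector that tethers autophagosomes to late endosomes and lysosomes, was at 37.4, 41.4 and 35.9 CPM in ATG7KO after EBSS and 26.2, 29.2 and 28.6 CPM in full medium. The RB1CC1KO-labelled line had 34.4, 35.1 and 37.9 CPM after EBSS and 30.7, 28.9 and 29.2 CPM in full medium, and WT 38.7, 35.7 and 41.3 against 25.7, 27.3 and 28.5 CPM. Groups did not overlap within any line. EPG5 had a log2 fold change of 0.46 ± 0.08 in ATG7KO (adjusted p = 1.46e-05), 0.27 ± 0.08 in the RB1CC1KO-labelled line (adjusted p = 0.00379) and 0.51 ± 0.08 in WT (adjusted p = 2.22e-06). With upper-quartile scaling the value in the RB1CC1KO-labelled line was 0.13 (adjusted p = 0.159).

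TECPR1, a lysosomal tether that binds the ATG12-ATG5 conjugate, was at 26.9, 26.9 and 31.8 CPM in ATG7KO after EBSS against 22.9, 20.5 and 21.4 CPM in full medium. It was at 34.5, 29.7 and 35.2 against 24.9, 24.2 and 24.5 CPM in the RB1CC1KO-labelled line, and at 24.5, 23.9 and 27.2 against 24.9, 21.7 and 22.1 CPM in WT. The starved libraries lay above the fed ones in both knockout-labelled lines and overlapped them in WT. The log2 fold change was 0.38 ± 0.09 in ATG7KO (adjusted p = 0.000775) and 0.43 ± 0.09 in the RB1CC1KO-labelled line (adjusted p = 6.5e-05); in WT it was 0.14 ± 0.09 (adjusted p = 0.184).

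Among the SNAREs, STX17 fell in every line while SNAP29 and YKT6 moved little. STX17 was at 17.6, 19.8 and 20.4 CPM in ATG7KO after EBSS and 23.7, 24.5 and 24.5 CPM in full medium. It was at 14.2, 15.8 and 16.9 against 19.6, 22.3 and 22.6 CPM in the RB1CC1KO-labelled line, and at 16.7, 16.8 and 16.6 against 22.4, 24.8 and 24.1 CPM in WT. Each line's starved libraries lay below its fed ones. STX17 had a log2 fold change of −0.35 ± 0.10 in ATG7KO (adjusted p = 0.0019), −0.46 ± 0.09 in the RB1CC1KO-labelled line (adjusted p = 4.61e-05) and −0.51 ± 0.09 in WT (adjusted p = 1.14e-05). STX17 shares its position with a gene on the opposite strand, and the strand setting of the counting is not given in the sources used here. RAB7A and PLEKHM1 also overlap counted genes on the opposite strand. On the same strand RAB7A overlaps RN7SL698P and VPS39 overlaps MIR627.

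SNAP29, which supplies a pair of helices to the bundle, was at 65.1, 60.2 and 58.3 CPM in ATG7KO after EBSS and 59.2, 52.5 and 55.8 CPM in full medium. The RB1CC1KO-labelled line had 56.9, 60.2 and 56.3 against 58.2, 58.1 and 52.1 CPM, and WT had 62.0, 64.8 and 63.4 against 55.7, 57.3 and 54.2 CPM. Starved and fed libraries overlapped in both knockout-labelled lines and not in WT. SNAP29 rose in WT by a log2 fold change of 0.19 ± 0.07 (adjusted p = 0.0184); the values of 0.14 ± 0.07 in ATG7KO (adjusted p = 0.0781) and 0.04 ± 0.07 in the RB1CC1KO-labelled line (adjusted p = 0.598) did not pass the threshold, which the ATG7KO value crossed without ATG7KO full replicate 1 (adjusted p = 0.0444). The WT call was lost with upper-quartile scaling (0.03, adjusted p = 0.673), without the filter on low counts, and without WT EBSS replicate 1 or 2 or WT full replicate 3. SNAP29 overlaps PI4KA on the opposite strand.

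YKT6, a lipid-anchored SNARE, was at 122, 129 and 142 CPM in ATG7KO after EBSS and 116, 111 and 110 CPM in full medium. The RB1CC1KO-labelled line had 148, 138 and 145 against 126, 116 and 129 CPM, and WT 132, 131 and 133 against 125, 120 and 121 CPM. In each line all starved libraries were above the fed ones by a small margin. The log2 fold change was 0.21 ± 0.06 in ATG7KO (adjusted p = 0.00306), 0.22 ± 0.06 in the RB1CC1KO-labelled line (adjusted p = 0.0018) and 0.11 ± 0.06 in WT (adjusted p = 0.0999). Neither call was kept with upper-quartile scaling, where the values were 0.05 and 0.08 (adjusted p = 0.472 and 0.264).

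The HOPS subunits VPS39 and VPS41 moved in opposite directions in ATG7KO and WT. VPS39 was at 55.4, 58.0 and 57.1 CPM in ATG7KO after EBSS against 62.9, 66.9 and 60.8 CPM in full medium. It was at 56.3, 61.6 and 54.4 against 66.8, 63.6 and 64.2 CPM in the RB1CC1KO-labelled line, and at 53.7, 57.3 and 52.7 against 67.8, 65.6 and 68.4 CPM in WT. Each line's starved libraries lay below its fed ones. VPS39 fell by 0.16 ± 0.07 on the log2 scale in ATG7KO (adjusted p = 0.0379), by 0.17 ± 0.07 in the RB1CC1KO-labelled line (adjusted p = 0.0211) and by 0.30 ± 0.07 in WT (adjusted p = 0.000185). Its call in ATG7KO was lost without the filter on low counts and when ATG7KO EBSS replicate 3 or ATG7KO full replicate 1 or 2 was left out, and its call in the RB1CC1KO-labelled line when EBSS replicate 1 or 3 or full replicate 1 or 3 of that line was left out.

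VPS41 was at 74.4, 71.9 and 81.5 CPM in ATG7KO after EBSS against 66.2, 69.2 and 63.4 CPM in full medium. It was at 66.2, 71.9 and 69.8 against 65.8, 71.9 and 67.9 CPM in the RB1CC1KO-labelled line, and at 85.7, 78.5 and 77.1 against 60.5, 66.6 and 65.6 CPM in WT. Starved libraries were above fed ones in ATG7KO and WT, and the groups overlapped in the RB1CC1KO-labelled line. VPS41 had a log2 fold change of 0.18 ± 0.07 in ATG7KO (adjusted p = 0.0202), 0.02 ± 0.07 in the RB1CC1KO-labelled line (adjusted p = 0.838) and 0.32 ± 0.07 in WT (adjusted p = 9.22e-05). The ATG7KO call was lost with upper-quartile scaling (0.02, adjusted p = 0.786), without the filter on low counts, and when any ATG7KO EBSS replicate or ATG7KO full replicate 3 was left out.

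Ratios of read counts within a library do not depend on how libraries are scaled; the 2 pairs given here were chosen after their values were seen and carry no test. The VPS41 to VPS39 ratio was 1.34 ± 0.0939 in ATG7KO after EBSS and 1.04 ± 0.00874 in full medium, 1.21 ± 0.0642 and 1.06 ± 0.0726 in the RB1CC1KO-labelled line, and 1.48 ± 0.113 and 0.955 ± 0.0611 in WT (SD, n = 3 each). The RAB7A to STX17 ratio was 16.0 ± 2.54 after EBSS and 9.14 ± 0.261 in full medium in ATG7KO, 22.0 ± 2.92 and 11.0 ± 1.20 in the RB1CC1KO-labelled line, and 20.6 ± 1.60 and 9.95 ± 0.808 in WT. Both ratios were higher after EBSS in every line with no overlap between the groups.

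**Figure D3:**
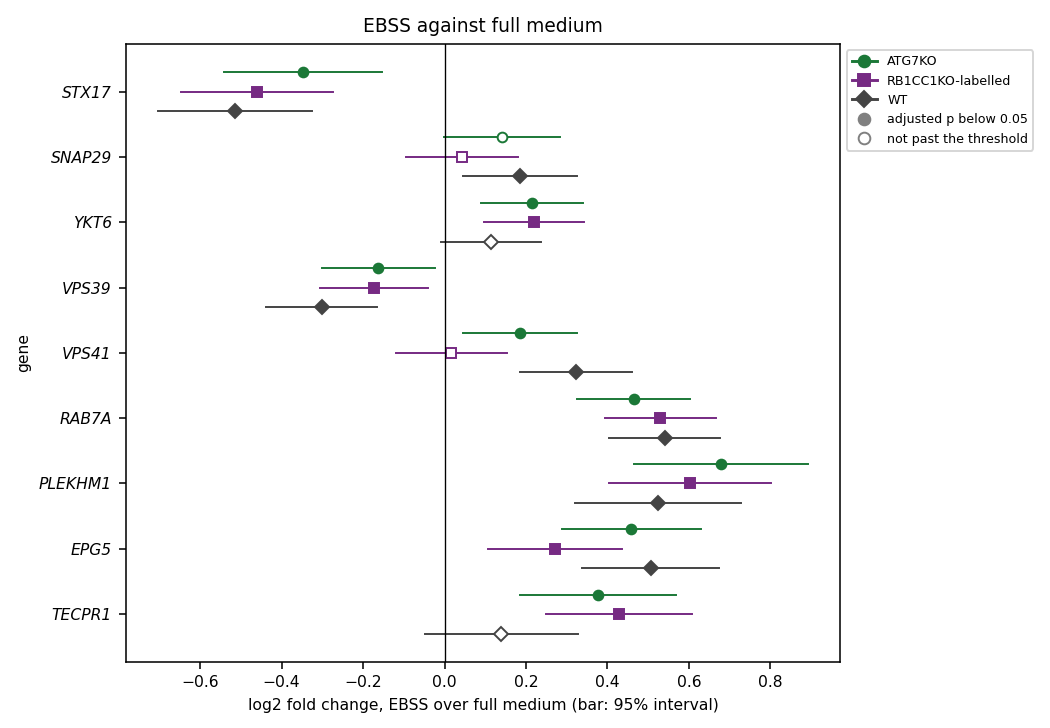
Log2 fold change of the 9 tested fusion genes, EBSS over full medium, in ATG7KO (circles), the RB1CC1KO-labelled line (squares) and WT (diamonds); bars are 95% intervals and filled markers passed an adjusted p of 0.05. RAB7A, PLEKHM1 and EPG5 lie right of 0 and STX17 and VPS39 left of it in all 3 lines, while VPS41 is at 0.02 in the RB1CC1KO-labelled line and 0.32 in WT.

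The scaling of libraries sets where 0 lies in these responses. With upper-quartile scaling the median log2 fold change of all genes was −0.17 in each line, and rising genes made up 37.2% of the calls in ATG7KO, 37.0% in the RB1CC1KO-labelled line and 37.4% in WT, against 51.3%, 48.9% and 50.3% with TMM scaling. Under it 6, 5 and 6 of the 9 tested members were called in these lines, beside 9990, 10242 and 10105 of all 15179 genes. RAB7A, PLEKHM1, STX17 and VPS39 kept their direction and their call in all 3 lines under both scalings: RAB7A had log2 fold changes of 0.30, 0.39 and 0.39, PLEKHM1 of 0.52, 0.46 and 0.37, STX17 of −0.51, −0.60 and −0.67 and VPS39 of −0.33, −0.31 and −0.45 in ATG7KO, the RB1CC1KO-labelled line and WT.

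The second comparison set each knockout-labelled line against WT in the same medium. Both lines were compared with the same WT libraries, so their values are not independent of each other. In full medium none of the 9 members was called by edgeR's test in ATG7KO (10.5% of all tested genes were called; 1 member, PLEKHM1, had an unadjusted p below 0.05) or in the RB1CC1KO-labelled line (17.2% of all genes; 0 members at an unadjusted p below 0.05), and DESeq2 called none in either. The largest difference in ATG7KO was that of PLEKHM1, with a log2 fold change of −0.22 ± 0.10 (95% interval −0.43 to −0.01; adjusted p = 0.19). In the RB1CC1KO-labelled line it was that of STX17, at −0.15 ± 0.09 (95% interval −0.33 to 0.04; adjusted p = 0.285). RAB7A differed by −0.09 in ATG7KO (95% interval −0.23 to 0.04) and by 0.00 in the RB1CC1KO-labelled line (95% interval −0.14 to 0.14). A missed threshold does not show equal levels.

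After EBSS no member was called in ATG7KO against WT (13.2% of all genes were called; 1 member at an unadjusted p below 0.05, and none by DESeq2). That member was RAB7A, at 333, 291 and 290 CPM in ATG7KO against 335, 375 and 320 CPM in WT, with a log2 fold change of −0.17 ± 0.07 (95% interval −0.31 to −0.03; adjusted p = 0.0994). It passed the threshold when ATG7KO EBSS replicate 1 (adjusted p = 0.0108) or WT EBSS replicate 3 (adjusted p = 0.043) was left out. In the RB1CC1KO-labelled line 2 of 9 members were called after EBSS (31.6% of all genes). TECPR1 was higher, at 34.5, 29.7 and 35.2 CPM against 24.5, 23.9 and 27.2 CPM in WT, with a log2 fold change of 0.39 ± 0.09 (95% interval 0.21 to 0.57; adjusted p = 0.00081). VPS41 was lower, at 66.2, 71.9 and 69.8 CPM against 85.7, 78.5 and 77.1 CPM in WT, with −0.21 ± 0.07 (95% interval −0.35 to −0.08; adjusted p = 0.0133). Neither pair of groups overlapped. The TECPR1 call held in each of its alternatives, and that of VPS41 was lost without RB1CC1KO EBSS replicate 1 (adjusted p = 0.099) or WT EBSS replicate 1 (adjusted p = 0.133).

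**Figure D4:**
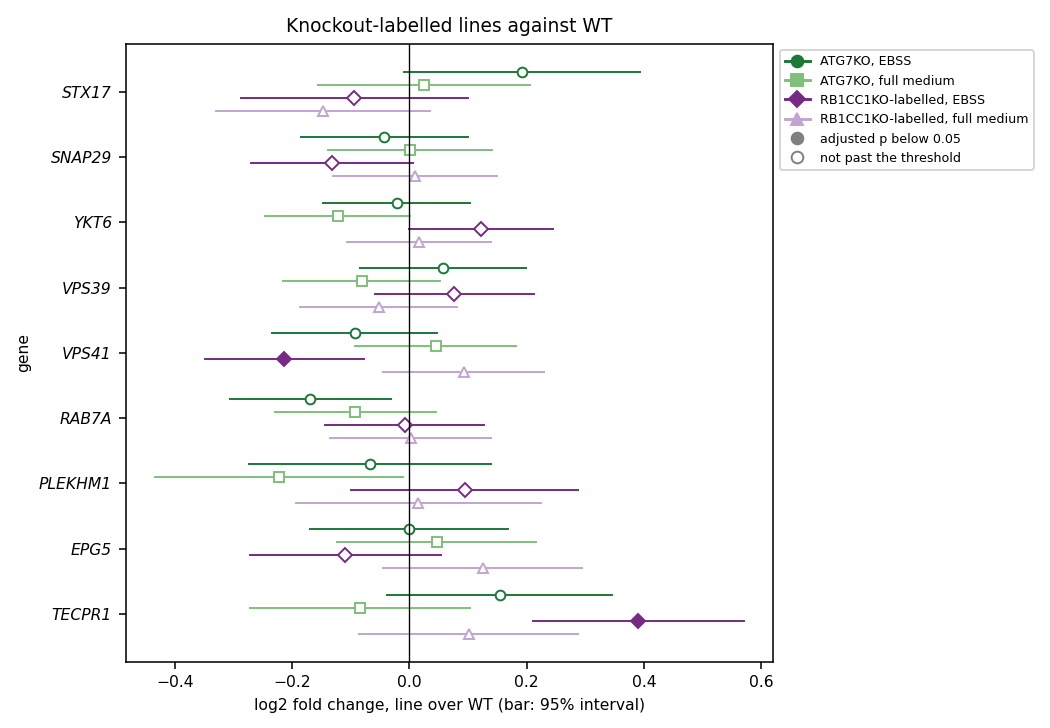
Log2 fold change of the 9 tested fusion genes in each knockout-labelled line over WT, after EBSS and in full medium; bars are 95% intervals and filled markers passed an adjusted p of 0.05. The filled markers are TECPR1 (0.39) and VPS41 (−0.21) in the RB1CC1KO-labelled line after EBSS.

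The third comparison tested whether a member responded to EBSS differently in a knockout-labelled line than in WT. No member was called for ATG7KO minus WT (1.05% of all genes; 0 members at an unadjusted p below 0.05, and none by DESeq2); the differences ran from −0.14 for VPS41 (95% interval −0.33 to 0.06) to 0.24 for TECPR1 (95% interval −0.03 to 0.51). For the RB1CC1KO-labelled line minus WT 1 of 9 was called (8.16% of all genes). VPS41 responded less, by −0.31 ± 0.10 on the log2 scale (95% interval −0.50 to −0.11; adjusted p = 0.0398). The call sits at the threshold: over its 19 alternatives the adjusted p ran from 0.0279 to 0.202, and 8 of the 19 passed. For TECPR1, called in the RB1CC1KO-labelled line and not in WT, the difference was 0.29 ± 0.13 (95% interval 0.03 to 0.55; adjusted p = 0.172), and for EPG5 it was −0.23 ± 0.12 (95% interval −0.47 to 0.00; adjusted p = 0.235).

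The genes around the members were described in the same way. Of 55 related genes in 5 lists, 54 were tested (RUBCNL was not), and EBSS raised 19 and lowered 12 in ATG7KO, 18 and 17 in the RB1CC1KO-labelled line, and 21 and 15 in WT. These are 57.4%, 64.8% and 66.7% called, against 62.9%, 65.1% and 64.5% of all genes. Of all genes 32.3% rose and 30.6% fell in ATG7KO, 31.9% and 33.3% in the RB1CC1KO-labelled line, and 32.4% and 32.1% in WT, and the counts of each list below stand beside these shares. The related genes' median log2 fold change was 0.02, 0.02 and 0.03 in these lines, close to that of all genes. In all 3 lines 17 rose and 11 fell.

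Of the 6 other HOPS and CORVET subunits, 1 rose and 1 fell in ATG7KO, 1 rose and 1 fell in the RB1CC1KO-labelled line, and 1 rose and 2 fell in WT. VPS18, a core subunit of both complexes, was at 23.7, 23.4 and 24.6 CPM in ATG7KO after EBSS against 61.1, 50.2 and 50.8 CPM in full medium. It was at 16.9, 17.0 and 21.1 against 68.9, 61.6 and 58.4 CPM in the RB1CC1KO-labelled line, and at 34.7, 33.5 and 43.8 against 71.2, 58.5 and 66.0 CPM in WT. Fed libraries overlapped between the lines, and the starved libraries of both knockout-labelled lines lay below those of WT. The overlap does not show equal fed levels. In full medium the log2 fold change of ATG7KO over WT was −0.37 to −0.20 over 12 alternatives, and 5 of them passed the threshold. The log2 fold change was −1.19 ± 0.11 in ATG7KO (adjusted p = 6.89e-11), −1.79 ± 0.11 in the RB1CC1KO-labelled line (adjusted p = 1.45e-15) and −0.80 ± 0.10 in WT (adjusted p = 3.42e-08). The response of the RB1CC1KO-labelled line minus that of WT was −0.99 ± 0.15 (adjusted p = 4.1e-05), and that of ATG7KO minus WT was −0.38 ± 0.15 (95% interval −0.69 to −0.08; adjusted p = 0.211). VPS11, another core subunit, rose by 0.51, 0.32 and 0.21 on the log2 scale in ATG7KO, the RB1CC1KO-labelled line and WT (adjusted p = 1.99e-06, 0.000574 and 0.0214). The VPS11 call in WT was lost with upper-quartile scaling (0.06, adjusted p = 0.519), without the filter on low counts, and without WT EBSS replicate 1 or 3 or WT full replicate 2. VPS33A, the SM protein of HOPS, fell in WT (−0.33, adjusted p = 0.00225) and had −0.09 and −0.18 in ATG7KO and the RB1CC1KO-labelled line (adjusted p = 0.419 and 0.0877), both past the threshold with upper-quartile scaling (−0.25 and −0.32; adjusted p = 0.0195 and 0.0022).

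**Figure D5:**
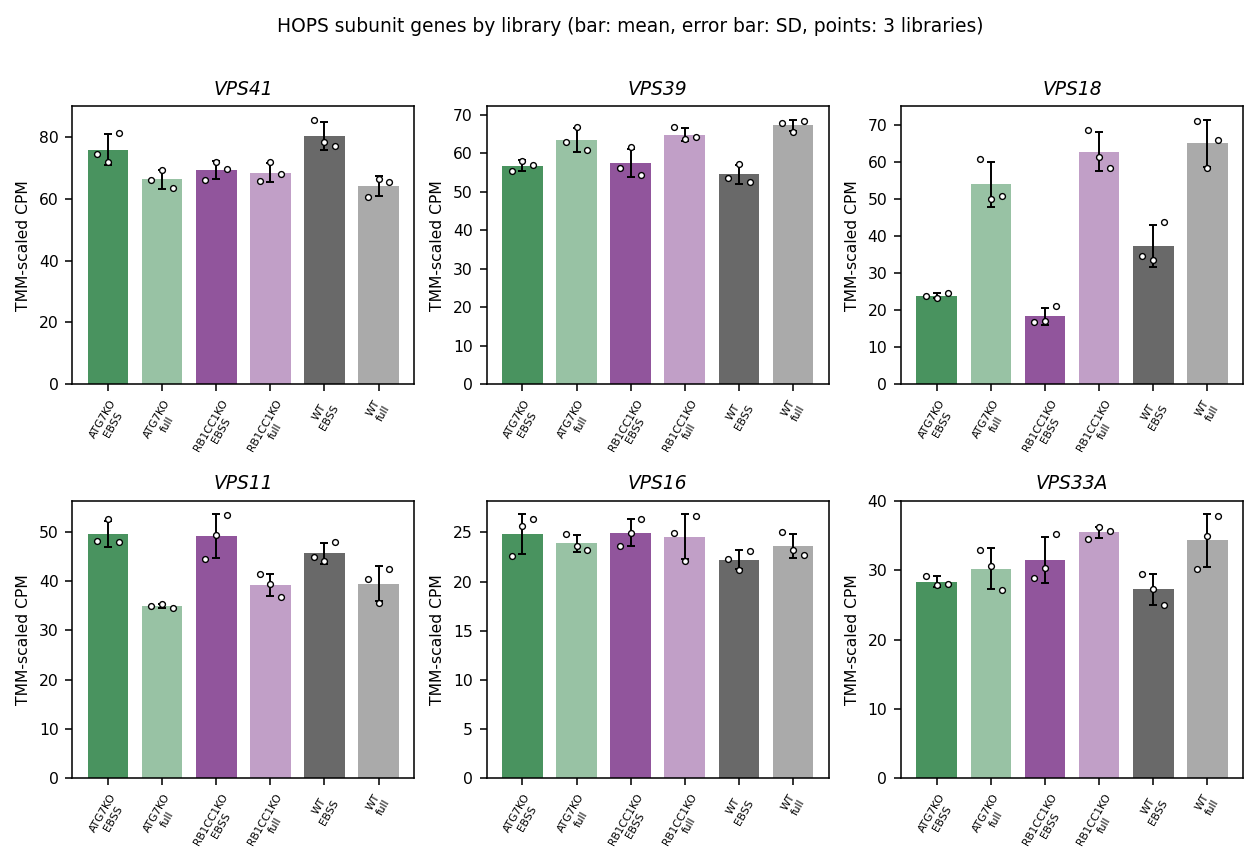
TMM-scaled CPM of the 6 HOPS subunit genes in each library (open points), with group mean (bar) and SD (error bar), for the 3 lines after EBSS (dark) and in full medium (light). VPS18 is lower after EBSS in every line and lowest in the RB1CC1KO-labelled line (16.9 to 21.1 CPM), whereas VPS41 is higher after EBSS in ATG7KO and WT.

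Among the 13 tested activators, inactivators and effectors of RAB7, 6 rose and 2 fell in ATG7KO, 5 and 3 in the RB1CC1KO-labelled line, and 5 and 3 in WT. UVRAG, a HOPS-binding subunit of the autophagy lipid kinase, rose by 1.77, 1.38 and 1.59 in these lines, and TBC1D15, a GTPase-activating protein for RAB7, by 1.16, 0.97 and 1.08. FYCO1, which couples RAB7 vesicles to kinesin, fell by 1.70 in ATG7KO, by 2.19 in the RB1CC1KO-labelled line and by 1.60 in WT; the RB1CC1KO-labelled line minus WT was −0.59 ± 0.13 (adjusted p = 0.00383).

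Of the 12 other SNAREs and recycling factors, 1 rose and 5 fell in ATG7KO, 1 and 8 in the RB1CC1KO-labelled line, and 3 and 6 in WT. NSF, the ATPase that takes used SNARE bundles apart, fell by 0.40, 0.40 and 0.46 on the log2 scale in ATG7KO, the RB1CC1KO-labelled line and WT, VTI1B by 0.37, 0.50 and 0.29, and STX8, like VTI1B a SNARE of late endosomes, by 0.39, 0.46 and 0.50. The STX8 call in ATG7KO was lost without ATG7KO full replicate 1 (adjusted p = 0.068).

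Of the 11 genes in the list of lysosome positioning around the BORC complex, which acts in moving lysosomes outward along microtubules, 3 rose and 4 fell in ATG7KO, 3 and 5 in the RB1CC1KO-labelled line, and 3 and 4 in WT. BORCS8, a BORC subunit, fell by 0.87 on the log2 scale in ATG7KO, by 0.84 in the RB1CC1KO-labelled line and by 1.15 in WT. BORCS8 shares its position with a read-through gene on the same strand, which makes its counts uncertain.

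The 12 other factors reported in fusion had 8 genes higher in ATG7KO, 8 in the RB1CC1KO-labelled line and 9 in WT, and 0 lower in any line by edgeR. GABARAP, an ATG8 protein that PLEKHM1 binds, was at 6.72, 7.61 and 8.49 CPM in ATG7KO after EBSS against 1.73, 2.43 and 1.75 CPM in full medium. It was at 9.49, 8.47 and 9.49 against 0.944, 1.18 and 0.668 CPM in the RB1CC1KO-labelled line, and at 7.52, 7.45 and 8.65 against 0.877, 1.24 and 1.34 CPM in WT. Its log2 fold change was 1.91, 3.27 and 2.76 in these lines. GABARAP overlaps another annotated gene on the same strand, so its counts are uncertain. LAMP2, a lysosomal membrane protein, rose by 0.39, 0.36 and 0.59, and DIPK2A by 0.33, 0.90 and 0.60; for DIPK2A the RB1CC1KO-labelled line minus WT was 0.29 ± 0.09 (adjusted p = 0.0309), and this call was lost in 6 of 19 alternatives (highest adjusted p = 0.0771).

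Against WT, 3 of the 54 tested related genes (5.56%) were called in ATG7KO in full medium, 2 of them higher, where 10.5% of all genes were called. In the RB1CC1KO-labelled line in full medium 4 were called (7.41%, against 17.2% of all genes), 1 of them higher. After EBSS 6 were called in ATG7KO (11.1%, against 13.2%), 1 of them higher, and 10 in the RB1CC1KO-labelled line (18.5%, against 31.6%), 3 of them higher. For the difference of response, ATG7KO minus WT, edgeR called 0 (1.05% of all genes), as did DESeq2; in edgeR 10 had a p below 0.05 before adjustment. For the RB1CC1KO-labelled line minus WT it called 3 (5.56%, against 8.16%), 1 of them higher.

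The protein-coding genes whose log2 CPM followed each member most closely over the 18 libraries were found among 12833 genes, as a description; the libraries fall into 2 media, so any gene that EBSS moved strongly scores high. They were PICALM (r = 0.980) and ABI1 (r = 0.975) for RAB7A, DNM2 (r = 0.982) and PRX (r = 0.978) for PLEKHM1, INSR and DOP1B (r = 0.953 each) for EPG5, and CCDC85C (r = 0.967) and RPAP1 (r = 0.954) for TECPR1. For the SNAREs they were TMEM223 (r = 0.968) and CASP8 (r = 0.962) for STX17, UBE2O (r = 0.938) and SPINDOC (r = 0.934) for YKT6, and HSD17B1 (r = 0.867) and ZNF148 (r = 0.855) for SNAP29. For the HOPS subunits they were ALKBH6 (r = 0.939) and ADAP2 (r = 0.932) for VPS39, and TOM1L1 (r = 0.906) and PHF3 (r = 0.905) for VPS41.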

How the data were processed

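Per the labels, polyadenylated RNA of HAP1 cells was sequenced with a directional kit as single-end reads from 3 biological replicates per group. Each library's file, as the authors deposited it, holds raw read counts by Ensembl gene; the submitters' processing notes name STAR 2.4.2a, HTSeq 0.6.1p1 and GRCh37 (hg19), but the strand setting is not given in the sources used here. Between 2.08% and 2.42% of uniquely aligned reads fell in more than 1 gene; these and reads in no gene (9.39% to 15.1%) stayed out of library sizes.

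Counts were filtered (filterByExpr), TMM-scaled and fitted in 1 model of 6 groups with edgeR 4.0.16 in R 4.3.3. Calls rest on the quasi-likelihood test at an adjusted p under 0.05 (Benjamini-Hochberg, 15179 genes); SE is the change divided by the root of F. No libraries agreed within sampling noise (chi-square per degree of freedom 2.4 to 11.5). Gene names, exon lengths and overlaps came from GENCODE 29, and promoters from RefSeq, both on GRCh38. From each related list up to 3 genes with the smallest p for EBSS in WT were named, with any called in a difference of responses; 2 genes named by this rule are not reported here. The members and lists were chosen with earlier results of these data known. Alternatives were upper-quartile and RLE scaling, no filter, DESeq2 1.42.0, the compared groups alone, replicate blocks, leaving out each replicate and, for levels, the longest transcript.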

Additional observations from a re-analysis of the deposited data

Results flagged for a closer look

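Among the 9 tested fusion genes and 54 tested related genes, the response to EBSS of 4 differed between the RB1CC1KO-labelled line and WT. The call is edgeR's test of the difference itself, adjusted over all genes. It was made for 11.1% of the tested fusion genes and 5.56% of the related genes, beside 8.16% of all tested genes. Among the fusion genes this was VPS41 (−0.31 on the log2 scale, adjusted p = 0.0398). Among related genes they were VPS18 (−0.99, adjusted p = 4.1e-05), FYCO1 (−0.59, adjusted p = 0.00383) and DIPK2A (0.29, adjusted p = 0.0309). VPS18 and FYCO1 passed in all 19 alternatives each, with highest adjusted p of 0.000443 and 0.0271, and DIPK2A in 13 of 19 (adjusted p 0.0105 to 0.0771). For the genes named in the line labels, ATG7 differed by 1.33 in ATG7KO minus WT (adjusted p = 6.07e-06) and RB1CC1 by −0.33 in the RB1CC1KO-labelled line minus WT (adjusted p = 0.0305, past the threshold in 11 of 19 alternatives). Groups of 3 libraries were not tested for single libraries far from the rest.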

How the results depend on the processing

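Of 1125 member values under an alternative, 1086 kept their side of the threshold, 35 lost a call, 4 gained one and no called value changed sign. Values that passed in neither setting could change sign, as SNAP29 did in ATG7KO (−0.02 with upper-quartile scaling), SNAP29 and VPS41 in the RB1CC1KO-labelled line (−0.10 and −0.13), and TECPR1 and YKT6 in WT (−0.01 and −0.04). Among all genes, 281 in place of 160 were called for the difference ATG7KO minus WT without the filter on low counts. For the RB1CC1KO-labelled line minus WT the 1 member, VPS41, became 0 without the filter, with the compared groups alone and with RLE scaling.

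Same-numbered libraries correlated between −0.084 and 0.221 in their deviations from the group means, and differently numbered ones between −0.169 and 0.108. With 3 libraries per group these values cannot decide whether the numbers pair the samples. With a replicate block the ATG7KO minus WT count was 293, or 305 with the block within each line, and 1 related gene was called in place of 0 under either block; members in ATG7KO against WT after EBSS went to 1 in place of 0 (RAB7A, adjusted p = 0.0392), and related genes in ATG7KO against WT in full medium to 5 in place of 3.

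Leaving out 1 library at a time gave 1235 to 1922 genes in place of 2010 for ATG7KO against WT after EBSS (lowest without ATG7KO EBSS replicate 2), 71 to 275 in place of 160 for the difference ATG7KO minus WT (lowest without ATG7KO EBSS replicate 2, highest without WT EBSS replicate 3), and 788 to 1588 in place of 1238 for RB1CC1KO minus WT (lowest without WT EBSS replicate 1). Members ranged from 0 to 1 for ATG7KO against WT after EBSS, from 1 to 2 for RB1CC1KO against WT after EBSS, and from 0 to 1 for RB1CC1KO minus WT. Related genes ranged from 3 to 6 in place of 6 for ATG7KO against WT after EBSS (lowest without WT EBSS replicate 2), from 0 to 3 in place of 3 for ATG7KO against WT in full medium (lowest without WT full replicate 1), from 0 to 2 in place of 0 for ATG7KO minus WT (highest without WT EBSS replicate 3), from 6 to 8 in place of 10 for RB1CC1KO against WT after EBSS, and from 1 to 4 in place of 4 for RB1CC1KO against WT in full medium (lowest without WT full replicate 3).

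The causes of these shifts were not tested. VAMP8 was too shallow to test, and ATG7KO EBSS replicate 3 had the fewest reads. Per length of the longest transcript, levels moved and so did the order of genes below YKT6, with VPS39, SNAP29 and VPS41 among them.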
